A study of Mus musculus with 6 samples.

Results

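The genes described here are the 5 NF-κB subunits (Rel, Rela, Relb, Nfkb1 and Nfkb2) and 5 inhibitors of the pathway (Nfkbia, Nfkbib, Nfkbie, Nfkbiz and Tnfaip3), taken by gene symbol from the 23091 symbols in the files. All 10 were found, each as 1 entry per library. The libraries come from Th9 cells, CD4 T helper cells driven toward interleukin 9 production. Naive CD4 T cells of wild-type C57/Bl6j mice aged 7 weeks were grown on CD3/CD28-coated plates in medium with IL-4 (20 ng/ml), TGFβ (2 ng/ml) and an antibody that blocks interferon γ. Every group had this activation and these cytokines in culture, so no library shows cells that were never stimulated. The groups are Th9 cells cultured with IL-1β (10 ng/ml) and Th9 cells cultured without it, at each of 3 stages. The stages are 1 h in culture, day 3 in culture, and transfer, in which CD45.2 cells went into CD45.1 mice at day 3 and were sorted again 1 week after that. After transfer, with and without IL-1β refer to the culture that came before. The tissue from which the transferred cells were sorted and the number of mice behind each library are not given in these sources. There is 1 library in each of the 6 groups, so no spread between replicates can be given.

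NF-κB is a family of dimeric transcription factors. Rela, Rel and Relb carry activation domains, while Nfkb1 and Nfkb2 encode long precursors that are processed to the p50 and p52 subunits. In resting cells IκB proteins hold the dimers in the cytoplasm, and signals from the T cell receptor, TNF receptors or the IL-1 receptor cause the IκB proteins to be phosphorylated and degraded. Several inhibitors are themselves NF-κB target genes, which closes a feedback loop: Nfkbia encodes IκBα, Nfkbie encodes IκBε, and Tnfaip3 encodes A20, a ubiquitin-editing enzyme that acts upstream of the IκB kinase. Nfkbib encodes IκBβ. Nfkbiz encodes IκBζ, a nuclear IκB-like protein that can also act as a coactivator on some targets.

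The values are the authors' FPKM, fragments per unit of transcript length and of library depth, each with a lower and an upper bound. Because FPKM is per length, levels of different genes in a library can be set side by side. The RNA selection and the trends with transcript length given below limit this. Genes were compared between 2 libraries if 1 or both had at least 5 FPKM. Counted as higher or lower were genes whose (FPKM + 1) differed at least 2-fold between the 2 libraries, with no overlap of the deposited intervals. This rule is a description of 2 libraries and carries no p-value. All log2 ratios are on the log2(FPKM + 1) scale, which understates the change of low genes.

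The libraries differ in ways that bear on these genes. The 2 libraries at 1 h were made from rRNA-depleted RNA and the other 4 from poly(A)-selected RNA, so stage and RNA selection cannot be told apart between 1 h and day 3. Only 765 genes with IL-1β and 631 without reached 5 FPKM at 1 h, against 7313 to 8154 in the other libraries, and the 45S ribosomal RNA Rn45s took 24.7% and 41.3% of all FPKM. Depth is not stated. Its ratio within a pair was read from genes at the lowest step of the FPKM, taken as 1 fragment. The library with IL-1β was 2.33 times as deep as the one without at 1 h (60 genes), 0.911 times at day 3 (16 genes) and 1.02 times in vivo (12 genes). The median half-width of the intervals of the 10 genes was 42.1% of the FPKM with IL-1β and 81.9% without at 1 h, and 17.8% to 21.0% in the other 4 libraries. The CD4 T cell markers Cd3d, Cd3e, Cd3g, Cd4, Cd28, Cd5 and Lck were above 0 in every library. Markers of other cells were present too. At 1 h the haemoglobin gene Hba-a1 stood at 232.3 FPKM with IL-1β and 214.8 without, above the summed CD4 T cell markers at 56.3 and 42.3 FPKM, while its day 3 values were 1.69 FPKM with IL-1β and 0 without. In vivo the 8 lung epithelial markers summed to 17035.5 FPKM with IL-1β and 6572 without, although at day 3 they summed to 14.5 and 13.2 FPKM.

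The promoters of the 3 members counted for IL-1β at day 3 or in vivo are shown because they carry matches to the κB consensus, the 10-base motif that NF-κB dimers bind. Sequences are from RefSeq on GRCm38.p6 and run 5′ to 3′ on the strand of the gene, 150 bases each, with the matches in capitals. The stretch of Tnfaip3 is chr10:19015411-19015560, that of Nfkbia chr12:55492648-55492797 and that of Rel chr11:23770970-23771119, all on the minus strand.
Tnfaip3: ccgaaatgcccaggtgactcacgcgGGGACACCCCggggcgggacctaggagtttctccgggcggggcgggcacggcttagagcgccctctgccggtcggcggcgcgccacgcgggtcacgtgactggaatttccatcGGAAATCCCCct
Nfkbia: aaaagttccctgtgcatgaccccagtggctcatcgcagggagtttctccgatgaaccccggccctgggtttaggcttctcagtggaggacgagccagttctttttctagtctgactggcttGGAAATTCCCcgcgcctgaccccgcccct
Rel: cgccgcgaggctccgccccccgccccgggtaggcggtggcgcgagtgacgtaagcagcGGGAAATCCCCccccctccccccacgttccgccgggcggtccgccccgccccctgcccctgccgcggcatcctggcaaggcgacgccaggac
The Tnfaip3 window holds matches at -125 to -116 and at -12 to -3 from the start, Nfkbia 1 match at -29 to -20, and Rel an 11-base stretch at -92 to -82 where matches overlap.

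Of the 10 members, 7 had promoter windows in the source used, 10 windows that run from 250 bases before to 50 bases after a start. Relb, Nfkb1 and Nfkbiz had none there, so the promoter of Nfkbiz, counted at 1 h, could not be read. The κB consensus, read on both strands, matched in 7 of these 10 windows and in 5 of the 7 genes. Over all 32851 windows of this length, 8.46% held a match. Nfkb2 had matches in each of its 3 windows, 2 of which overlap and share a match, and Nfkbie had 1 match, at -106 to -97. The windows of Rela and Nfkbib and the other window of Tnfaip3 held none. A match is a description of the letters in the window and says nothing of binding in these cells.

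In deposited FPKM the subunits other than Rel were many times higher at day 3 and in vivo than at 1 h. Nearly all genes had this order. With libraries scaled to equal upper quartiles it turned round at day 3 for each of these subunits in both arms. Rela, the main activating subunit, stood at 5.02 FPKM with IL-1β and 5.86 without at 1 h, at 41.6 and 45.6 FPKM at day 3, and at 69.9 and 49.2 FPKM in vivo. Nfkb1, the precursor of p50, stood at 8.10 FPKM with IL-1β and 4.86 without at 1 h, at 56.5 and 85.1 FPKM at day 3, and at 79.2 and 70.8 FPKM in vivo. Nfkb2, the precursor of p52 and partner of Relb in the non-canonical branch, stood at 7.27 FPKM with IL-1β and 4.55 without at 1 h, at 47.9 and 48.9 FPKM at day 3, and at 62.8 and 49.8 FPKM in vivo. In these 3 genes every poly(A) library lay above both 1 h libraries, with no overlap of intervals. Relb ranged from 3.13 FPKM at 1 h without IL-1β to 30.2 FPKM in vivo with IL-1β, and its 4 poly(A) libraries lay between 25.4 and 30.2 FPKM with overlapping intervals.

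Rel, which encodes c-Rel, a subunit made mainly in lymphocytes, lies at chr11:23641729-23670970 on mm9 and had a different order. At 1 h its level was 6.41 FPKM (3.56 to 9.24) with IL-1β and 5.28 FPKM (1.66 to 9.11) without. At day 3 the level was 3.31 FPKM (1.64 to 4.93) with IL-1β and 10.7 FPKM (7.47 to 13.7) without. In vivo the level was 11.3 FPKM (7.59 to 14.9) with IL-1β and 8.57 FPKM (5.38 to 11.6) without. The day 3 library with IL-1β was the lowest of the 6, and its interval lay apart from those of the other 3 poly(A) libraries. The intervals of both 1 h libraries overlapped it.

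Among the inhibitors, Nfkbia (chr12:56590396-56593634 on mm9) was the most abundant member in all 4 poly(A) libraries. Its level was 13.5 FPKM with IL-1β and 10.5 without at 1 h, 155.2 FPKM (124.0 to 161.3) and 123.9 FPKM (97.8 to 131.0) at day 3, and 284.6 FPKM (222.8 to 277.3) and 133.7 FPKM (102.5 to 141.7) in vivo. The in vivo value with IL-1β lies above its own deposited upper bound, and no other member's value lay outside its interval. In this library 319 entries had an FPKM above their upper bound. Tnfaip3 (chr10:18720717-18735216 on mm9) stood at 28.0 FPKM (23.1 to 33.0) with IL-1β and 18.15 FPKM (12.1 to 24.2) without at 1 h. At day 3 the level was 17.9 FPKM (14.7 to 21.2) with IL-1β and 16.4 FPKM (13.4 to 19.4) without, and in vivo it was 88.7 FPKM (80.3 to 97.2) and 21.6 FPKM (17.6 to 25.4). Tnfaip3 was highest in vivo with IL-1β, with an interval apart from all others. Apart from the 1 h library with IL-1β, the other 4 libraries lay between 16.4 and 21.6 FPKM with overlapping intervals.

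Nfkbiz (chr16:55811490-55838754 on mm9) stood at 10.6 FPKM (7.13 to 14.0) with IL-1β and 2.46 FPKM (0 to 6.23) without at 1 h. At day 3 the level was 6.55 FPKM (4.42 to 8.82) with IL-1β and 5.81 FPKM (3.85 to 7.87) without, and in vivo it was 19.0 FPKM (15.0 to 23.1) and 9.83 FPKM (6.96 to 12.7). Its highest value was again in vivo with IL-1β. Nfkbib ranged from 1.19 FPKM at 1 h without IL-1β to 39.1 FPKM in vivo with IL-1β, and its 4 poly(A) libraries lay between 30.4 and 39.1 FPKM. The Nfkbib value at 1 h without IL-1β has the pattern taken as 1 fragment. Its fragment ratio, with over without IL-1β, was 8 to 1. The library with IL-1β was 2.33 times as deep, and Nfkbib stood at 4.09 FPKM there. Nfkbie ranged from 2.83 FPKM at 1 h without IL-1β to 13.9 FPKM at day 3 without IL-1β, and intervals of its 4 poly(A) libraries overlapped.

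**Figure D1:**
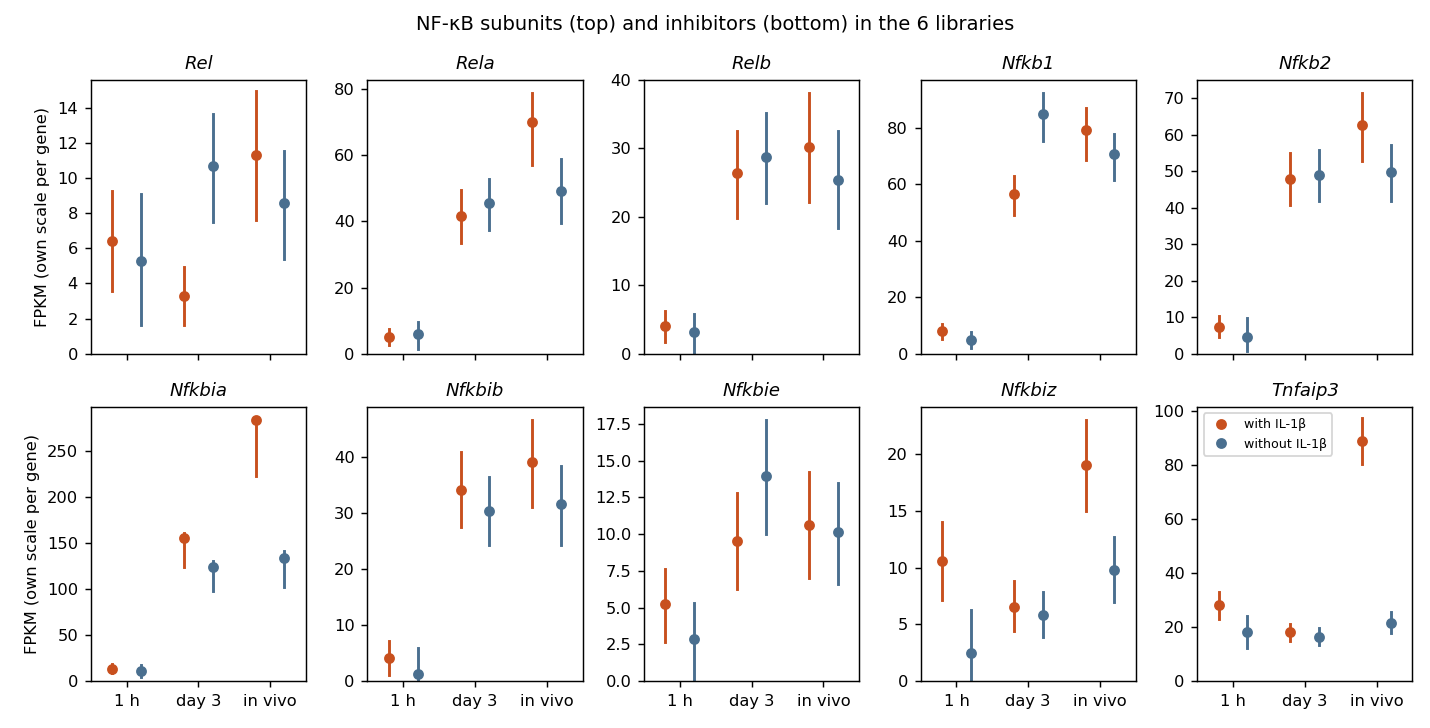
FPKM of the 10 genes in the 6 libraries, each gene on its own linear scale from 0, with the library with IL-1β left of the one without at each stage; points are FPKM and bars the deposited intervals, 1 library per group. Tnfaip3 stood at 88.7 FPKM in vivo with IL-1β and at no more than 28.0 FPKM elsewhere, Rel was lowest at day 3 with IL-1β, and the Nfkbia point in vivo with IL-1β lies above its bar.

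The first question of the design is how the libraries with and without IL-1β differed within a stage. At 1 h, Nfkbiz was the only member counted, higher with IL-1β by a log2 ratio of 1.74. Relb and Nfkbib stayed below 5 FPKM in both libraries, so 1 of 8 compared members was higher, while 7.72% of the 933 compared genes were higher and 0.214% lower. Of all 10 members, 9 ratios were above 0, but the median over all compared genes was also above 0, at 0.30. The members' median was 0.59. Rela, at -0.19, was the exception, and Tnfaip3 had 0.60 with overlapping intervals. The call for Nfkbiz ended when the pair was scaled to a median ratio of 1, where its log2 ratio was 1.54 and the intervals overlapped. The 8 myeloid markers summed to 42.3 FPKM with IL-1β and 21.0 without in this pair, with 3 at 0 with IL-1β and 6 at 0 without. Of the 3 compared, Tyrobp, an adaptor of myeloid receptors, was counted as higher, at 6.59 FPKM with IL-1β and listed at 0 without. Lyz2 stood at 7.07 FPKM with IL-1β and 2.36 without, and H2-Aa at 27.9 and 18.6 FPKM. Their part in the value of Nfkbiz was not tested. Of the 10 ratios, 8 were above 0 with the trend with transcript length removed, and 6 with the pair scaled to equal sums of the CD4 T cell markers.

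At day 3 Rel was counted as lower with IL-1β, with a log2 ratio of -1.44, and no other member was counted. That is 1 of 10 members, while 2.15% of 7962 compared genes were lower and 1.29% higher. All 5 subunits had ratios below 0, between -0.03 for Nfkb2 and -1.44 for Rel. Of 5 inhibitors, 4 had ratios above 0, between 0.12 for Tnfaip3 and 0.32 for Nfkbia, or 3 of 5 with equal CD4 T cell markers. The median over all compared genes was also below 0, at -0.05, and their middle 50% ran from -0.37 to 0.29. Rela, Relb, Nfkb2, Nfkbib, Nfkbiz and Tnfaip3 lay inside that range, and Rel, Nfkb1, Nfkbie and Nfkbia outside it. Nfkb2 turned to 0.11 with the trend of ratios with transcript length removed and also turned above 0 with equal upper quartiles. Nfkb1 had intervals apart, 56.5 FPKM (49.2 to 63.2) with IL-1β and 85.1 FPKM (75.6 to 92.6) without, but a log2 ratio of -0.58, less than 2-fold. Nfkbie had a ratio of -0.50 with overlapping intervals. The inhibitors summed to 1.27 times the subunits in FPKM with IL-1β and to 0.870 times without.

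The day 3 pair also differed by transcript length. Across the 7240 compared genes with a known length, Spearman's rho between the log2 ratio and length was -0.53, as a description across genes of the same 2 libraries. The median ratio was 0.34 in the shortest 20% of genes and -0.42 in the longest 20%. Rel, whose longest annotated transcript has 7466 bases, is the longest member, and among the longest 20% of genes 97 of 1447 genes were lower and 18 had a ratio below that of Rel. With the length trend removed Rel was still counted, at -1.08, while a pseudocount of 5 in place of 1 gave -0.91 and ended the call. Tnfaip3, the next longest with 6199 bases, had a ratio of 0.12 as deposited and 0.52 with the length trend removed. The same removal took Nfkbia from 0.32 to 0.08 and Nfkbib from 0.17 to 0.04. Nfkbiz went from 0.15 to 0.31 and Nfkbie from -0.50 to -0.47. The part of length in the remaining difference was not tested.

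In vivo Tnfaip3 and Nfkbia were counted as higher with IL-1β, with log2 ratios of 1.99 and 1.08. That is 2 of 10 members, while 6.23% of 8639 compared genes were higher and 3.48% lower. All 10 ratios were above 0, in the deposited values and under each scaling and the length correction tried, from 0.06 for Nfkbie to 1.99 for Tnfaip3. Their median was 0.35, against 0.03 over all compared genes. Only 194 of these genes had a higher ratio than Tnfaip3 and 636 a higher ratio than Nfkbia. Nfkbiz had intervals apart but a log2 ratio of 0.89, less than 2-fold. The 5 subunits had ratios between 0.16 for Nfkb1 and 0.50 for Rela, all with overlapping intervals. Most of the summed difference lay in the inhibitors, which totalled 442.1 FPKM with IL-1β and 206.9 without, while the subunits totalled 253.4 and 203.8 FPKM.

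Markers of other cells and early response genes also differed in this pair. Of the 8 lung epithelial markers 7 were compared and 6 were higher with IL-1β, and none was at 0 in either library. The 7 markers of stroma and endothelium summed to 224.1 FPKM with IL-1β and 55.7 without, with 6 of 7 higher and none at 0. The 8 myeloid markers summed to 1912 FPKM with IL-1β and 684.0 without, with 2 of 7 compared genes higher and none at 0. The 4 erythroid markers summed to 641.6 FPKM with IL-1β and 357.9 without. Of these, Hba-a2 was counted as higher and Hbb-b1 was at 0 in both, and reads of Hba-a2 may be split with its near-identical copy Hba-a1. The 4 B cell markers had the other order, with 24.3 FPKM with IL-1β and 39.6 without, 1 of 3 compared genes (Cd79b) lower and none at 0. None of the markers of NK and CD8 cells was counted. The 7 CD4 T cell markers summed to 1254 FPKM with IL-1β and 1399 without, and none of them was counted. Of 10 immediate early genes, which respond within minutes to stimulation, 8 were higher, and the 10 summed to 1859 FPKM with IL-1β and 653.9 without. The part of these cells and of the early response in the values of Tnfaip3 and Nfkbia was not tested. In such bulk libraries, fewer cells of a type and less RNA per cell cannot be told apart.

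**Figure D2:**
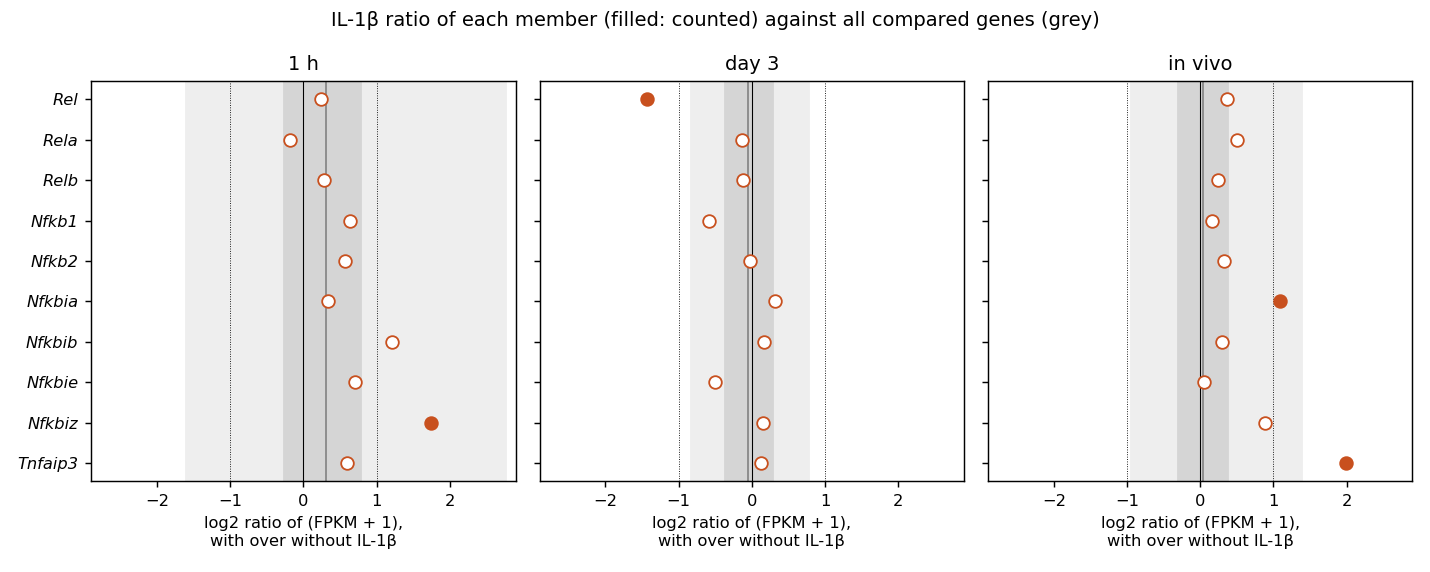
Log2 ratio of (FPKM + 1), with over without IL-1β, for each of the 10 genes at 1 h, day 3 and in vivo; filled points were counted by the 2-fold and interval rule, the light and dark grey bands hold the middle 90% and 50% of all compared genes, the grey line is their median, and dotted lines mark 2-fold. Nfkbiz at 1 h (1.74), Rel at day 3 (-1.44), and Nfkbia (1.08) and Tnfaip3 (1.99) in vivo are filled.

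The second question is how the transferred cells compared with the cultured cells. With IL-1β, Tnfaip3, Rel and Nfkbiz were counted as higher in vivo than at day 3, with log2 ratios of 2.24, 1.51 and 1.41. That is 3 of 10 members, while 12% of 8572 compared genes were higher and 5.87% lower. Nfkbia, Rela and Nfkb1 had intervals apart but differed by less than 2-fold, with ratios of 0.87, 0.74 and 0.48. All 10 ratios were above 0, under each scaling tried too, with a median of 0.61 against 0.04 over all compared genes. The length trend ran the other way here, with Spearman's rho of 0.32 across genes, and Rel was at 1.08 with it removed. A pseudocount of 5 gave 0.97 for Rel and ended that call. Rel's ratio shares the low day 3 library with the day 3 comparison, and Tnfaip3's shares the in vivo library with IL-1β, so these are not separate observations. For Rel the ratio was -0.29 without IL-1β, and the difference between the arms was not tested.

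Without IL-1β no member was counted as higher or lower in vivo than at day 3, while 2.13% of 8126 compared genes were higher and 0.665% lower. Ratios ran from -0.42 for Nfkbie to 0.67 for Nfkbiz, every pair of intervals overlapped, and the members' median was 0.04. In that pair only 420 genes had a higher ratio than Nfkbiz.

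Other marker lists differed between these stages as well. With IL-1β, 7 of 7 compared lung epithelial markers, 7 of 7 of stroma and endothelium and 6 of 7 myeloid markers were higher in vivo. The myeloid markers then summed to 1912 FPKM in vivo and 35.4 at day 3, and those of stroma and endothelium to 224.1 and 14.6 FPKM. Of the immediate early genes 8 of 10 were higher with IL-1β, with a median log2 ratio of 2.34. Without IL-1β, 4 of 4 compared lung epithelial markers, 3 of 4 of stroma and endothelium, 4 of 6 myeloid markers and 4 of 10 immediate early genes were higher in vivo. The myeloid markers summed to 684.0 FPKM in vivo and 27.3 at day 3 in that arm. Both compared erythroid markers with IL-1β and the 1 compared without were higher, as was 1 B cell marker in each arm, while no CD4 T cell marker was counted. The part of these cells and of the early response in the members' ratios was not tested.

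**Figure D3:**
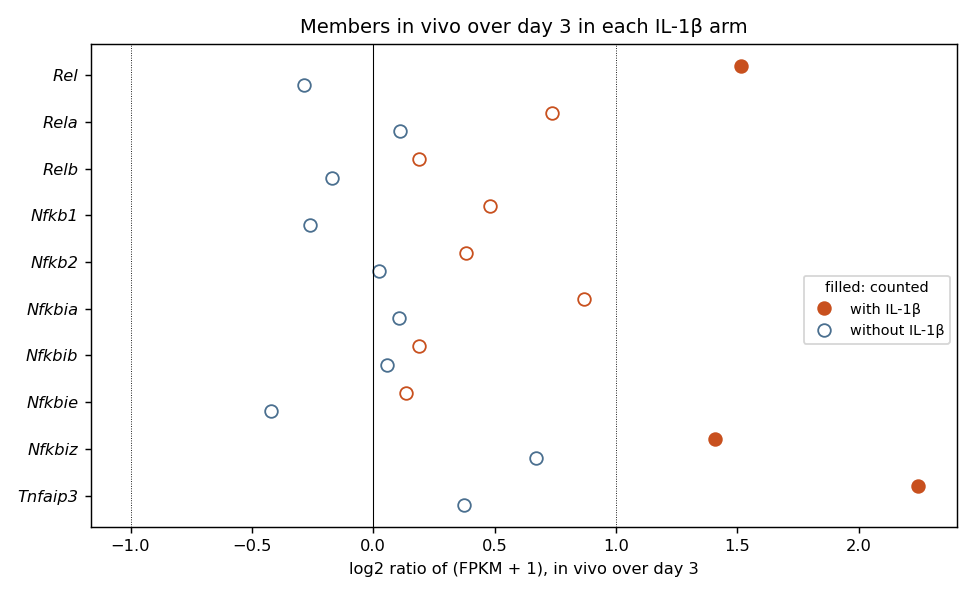
Log2 ratio of (FPKM + 1), in vivo over day 3, for each of the 10 genes with IL-1β (upper point of each row) and without IL-1β (lower point); filled points were counted, and dotted lines mark 2-fold. With IL-1β all 10 points lie above 0 and Tnfaip3 (2.24), Rel (1.51) and Nfkbiz (1.41) are filled, while without IL-1β none is filled.

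Between day 3 and 1 h the RNA selection changed as well, and almost every gene had a higher FPKM. With IL-1β 6 of 10 members were counted as higher at day 3 than at 1 h, while 95.5% of 7392 compared genes were higher and 0.595% lower. Without IL-1β 7 of 10 were higher, while 95.7% of 7689 compared genes were higher and 0.299% lower. Tnfaip3 was 17.9 FPKM at day 3 and 28.0 at 1 h with IL-1β, and 16.4 and 18.15 FPKM without. With libraries scaled to equal upper quartiles, no member was higher in either arm, and 4 were lower with IL-1β and 2 without. No direction over this interval is therefore given.

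The make-up of the family within a library does not depend on such a scaling, although it can depend on the RNA selection and on a trend with transcript length. Tnfaip3 made up 30.4% of the members' summed FPKM at 1 h with IL-1β and 30.9% without, the largest share in both. At day 3 its share was 4.49% with IL-1β and 4.01% without, and in vivo 12.8% and 5.25%. Nfkbia made up 14.6% with IL-1β and 17.8% without at 1 h, 38.9% and 30.3% at day 3, and 40.9% and 32.5% in vivo. Nfkbia was first in all 4 poly(A) libraries and second at 1 h. Nfkb1 was second at day 3 in both arms, with 14.2% with IL-1β and 20.8% without, while in vivo with IL-1β Tnfaip3 was second and Nfkb1 came after it. The inhibitors together made up 66.6% with IL-1β and 59.7% without at 1 h, 56.0% and 46.5% at day 3, and 63.6% and 50.4% in vivo. Their share was larger with IL-1β at each stage, with 1 library per group and no test. At day 3, where the ratios of short transcripts were higher, Nfkbia is the shortest of the 10 genes. With the length trend taken off the library with IL-1β, the inhibitors' share at day 3 was 51.5% with IL-1β, against 46.5% without, and that of Nfkbia 33.2% against 30.3%. The same correction gave inhibitor shares with IL-1β of 67.6% at 1 h and 63.4% in vivo.

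**Figure D4:**
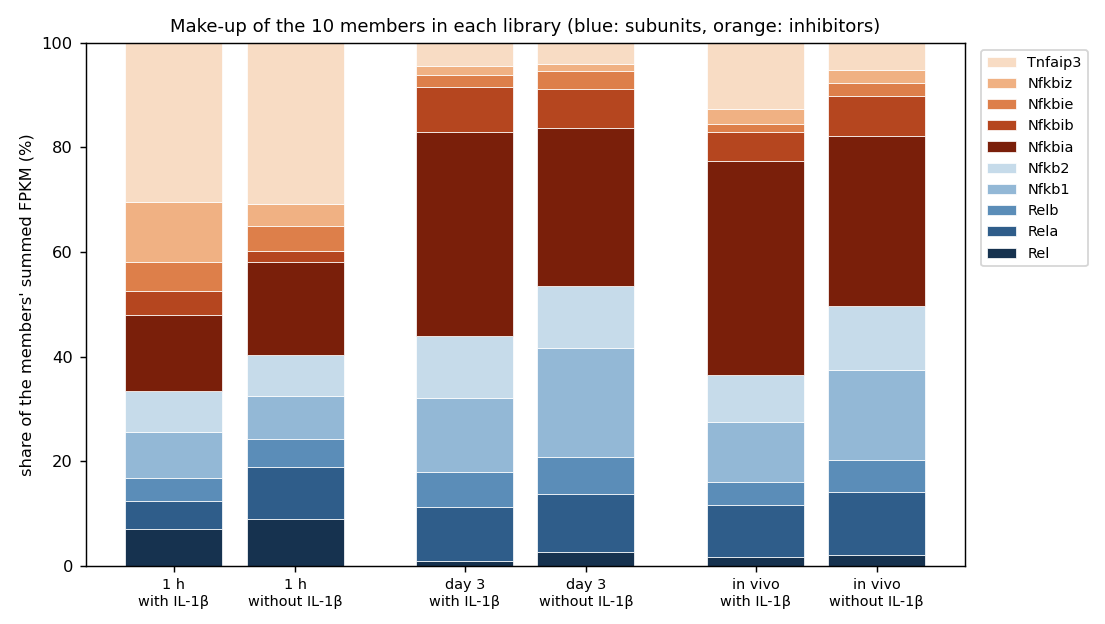
Share of each gene in the summed FPKM of the 10 genes (%), as stacked bars from 0 to 100 for the 6 libraries, with IL-1β left of without IL-1β at each stage; subunits are blue and inhibitors orange. Tnfaip3 holds 30.4% and 30.9% at 1 h, and Nfkbia is the largest part at day 3 and in vivo, with 40.9% in vivo with IL-1β.

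A limma fit over all 6 libraries took the 3 stages as the repeats of the IL-1β contrast, with 2 degrees of freedom left. It called 0 of 8946 genes (0%) at an adjusted p of 0.05 (Benjamini-Hochberg), and 320 genes, 3.58%, had an unadjusted p under 0.05. No member was called. Nfkbiz had a log2 difference of 0.93 (SE 0.37, limma adjusted p = 0.937), with ratios above 0 at 3 of 3 stages. Tnfaip3 had 0.90 (SE 0.40, limma adjusted p = 0.937), also above 0 at 3 of 3 stages. Rel had -0.28 (SE 0.41, limma adjusted p = 0.962) with 2 of 3 stages above 0. For in vivo minus day 3 across both arms the same fit called 202 genes, 2.26% of 8946, and 0 members, with 1 member at an unadjusted p under 0.05. Tnfaip3 had a log2 difference of 1.31 (SE 0.50, limma adjusted p = 0.482) and Nfkbiz of 1.04 (SE 0.45, limma adjusted p = 0.649), each above 0 in both arms.

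The rest of the pathway was read from 5 lists, chosen with earlier results of these data known. Their counts are to be set beside the 6.23% of all compared genes that were higher in vivo with IL-1β. Of the 9 genes next to the IL-1 receptor, 6 were compared in vivo and Myd88, the adaptor of the receptor, was higher at 36.4 FPKM with IL-1β and 17.4 without. None of these was counted at day 3, and none reached 5 FPKM at 1 h. Il1r1, the signalling IL-1 receptor chain, was below 5 FPKM in every library and so was not compared at any stage. Both 1 h libraries list it at 0. At day 3 the library with IL-1β had 0.668 FPKM of Il1r1 and the other 0.243 FPKM. In vivo the library with IL-1β had 3.17 FPKM, against 0.771 FPKM in the other. The part of other cells, whose markers also differed in the in vivo pair, in these low values was not tested. Of the 11 kinase genes around the IκB kinase, none was counted at any stage for IL-1β, and 10 were compared in vivo. Of 10 genes of the T cell receptor and TNF receptor branch, Prkcq, the kinase PKCθ of T cell receptor signalling, was the 1 counted in vivo, at 59.2 FPKM with IL-1β and 25.7 without. A single gene of 10 lies near the share over all genes.

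Of 14 other inhibitors and IκB-like genes, N4bp1 was the 1 counted in vivo, at 18.5 FPKM with IL-1β and 8.58 without, and none was counted at 1 h or day 3. This too is near the 6.23% over all genes. The median ratio of these 14 in vivo was 0.29. Among 24 known target genes, of which Birc3 and Traf1 also stand in the receptor branch list, 6 were higher in vivo with IL-1β, against 6.23% of all compared genes, and none lower, with a median of 0.76, against 0.03 over all genes. The chemokine gene Ccl4 stood at 64.4 FPKM with IL-1β and 4.88 without. Gadd45b, a stress response gene, stood at 91.9 and 16.1 FPKM, and Ccl3, another chemokine gene, at 78.9 and 16.2 FPKM. Csf2, which encodes GM-CSF, stood at 26.8 FPKM with IL-1β and 6.08 without, and Icam1, an adhesion molecule, at 41.1 and 13.6 FPKM. The remaining counted gene, Ltb, was outside the limit of 6 named genes per list and was named after its value was seen. The list itself was chosen with earlier results of these data known, so its counts are a description. At day 3 none of the 24 was counted and their median was 0.25. At 1 h the chemokine gene Ccl5 was the 1 counted of 9 compared, while 7.72% of all compared genes were higher, at 14.4 FPKM (3.46 to 24.2) with IL-1β and listed at 0 without. Myeloid cells also express Ccl3, Ccl4 and Icam1, and the myeloid markers given above were in the same 2 libraries.

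Likeness of pattern was measured as the root mean square difference of log2(FPKM + 1), centred over the 6 libraries, among 8351 genes. Within the family, Nfkb2 and Relb were nearest, with a difference of 0.19. Tnfaip3 and Nfkbiz were nearest to each other, at 0.51, and Tnfaip3 and Nfkbia were farthest apart, at 1.66. Over all genes the nearest to Tnfaip3 was Ifi203 at 0.10, followed by Slfn5 and Tmcc2. Ifi203 stood at 15.0 FPKM in vivo with IL-1β and at no more than 4.24 FPKM elsewhere. The nearest to Rel was Itpkb at 0.15, followed by Aff1 and Fgd3, and Itpkb stood at 5.44 FPKM at day 3 with IL-1β and 17.1 without. The nearest to Nfkbia were Abhd16a, Tapbpl and Tmem63b, from 0.12, and each of them was listed at 0 at 1 h without IL-1β. The nearest to Nfkbiz were Gem, Csf2rb and Kif1b, from 0.14, all at no more than 5.72 FPKM. Candidates needed 5 FPKM in at least 1 library. Gem, Csf2rb and Kif1b, and likewise Ifi203, Slfn5 and Tmcc2, reached it only in vivo with IL-1β. Their peak in that library was thus partly fixed by the filter. These are likenesses over 6 libraries that differ in RNA selection, and also in depth and in markers of other cells, within pairs too.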

How the data were processed

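RNA of 6 libraries was sequenced on a MiSeq, per the labels' protocols, after rRNA depletion (1 h) or poly(A) selection (day 3 and in vivo). Alignment with TopHat and the build mm9 are named in the submitters' processing notes. No source used here names the tool that made the gene values or the level of the intervals. Per the file headers, the authors deposited FPKM for each gene with a lower and an upper bound. Entries with a status other than OK (285 of 23700 per file) were left out, and entries of 1 symbol were summed. With 1 library per group, the p-values of limma rest on how far the difference between arms varied from stage to stage, and not on replicates.

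The pseudocount was 1 FPKM. The limma fit used log2 of FPKM + 1 with arm and stage, over genes that reached 5 FPKM in any library. The alternatives tried were a pseudocount of 0.1 or of 5, no filter, scaling to a median ratio of 1 or to equal upper quartiles, removal of the length trend (lowess, fraction 0.3, longest transcript per symbol in GENCODE, lengths known for 90.9% to 94.9% of compared genes), no interval condition, and, for limma, leaving out a stage. Scaling to equal summed CD4 T cell markers and removal of the length trend from the family shares were chosen after seeing the data. Named genes are all 10 members, counted genes of the pathway lists (at most 6 per list), and the 3 genes most like each member counted for IL-1β. The members and lists were chosen with earlier results of these data known. The scripts were tested on simulated data. Tools were Python 3.11.15, numpy 2.4.6, pandas 2.3.3, scipy 1.17.1, statsmodels 0.14.6, matplotlib 3.10.9, R 4.3.3 and limma 3.58.1.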

Additional observations from a re-analysis of the deposited data

Results flagged for a closer look

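The deposited values of Rel gave IL-1β ratios of opposite sign at different stages, of which the one at day 3 was counted. Its log2 ratio of (FPKM + 1) was 0.24 at 1 h and -1.44 at day 3, a difference of 1.68. At 1 h the sign turned, to -0.13 with the length trend removed and to -0.11 with equal CD4 T cell markers, so it was then the same as at day 3. Between day 3, at -1.44, and in vivo, at 0.36, the difference was -1.80. The same 4 poly(A) libraries read across stages give ratios of in vivo over day 3 of 1.51 with IL-1β and -0.29 without, a difference of 1.80. With 1 library per group these differences between stages and arms were not tested. Of the ratios behind them, those at 1 h and in vivo for IL-1β and the one without IL-1β have overlapping intervals, and all 3 differences rest on the day 3 library with IL-1β, where Rel stood at 3.31 FPKM. In the day 3 pair long transcripts had lower ratios, and the trend at the length of Rel was -0.45.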

How the results depend on the processing

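The labels give no replicate numbers, so no replicate number entered a fit as a block; the limma fit of arm and stage pairs the libraries with and without IL-1β by stage. Of 56 alternatives for the 7 member ratios counted among the 5 comparisons other than day 3 against 1 h, 50 kept the call, 6 lost it and 0 reversed. By construction, no filter, no interval condition and a pseudocount of 0.1 could not end a call. The calls kept under those settings therefore say nothing of how firm they are. At 1 h the count of members was 0 with the median ratio scaled to 1, equal upper quartiles, the length trend removed or equal CD4 T cell markers, where Nfkbiz had 1.54, 1.55, 1.40 and 1.37 and its intervals overlapped. At day 3 the count was 0 with a pseudocount of 5, where Rel had -0.91, and Rel in vivo over day 3 with IL-1β then had 0.97. Uncounted values were stronger in 3 of 344 alternatives: Nfkbiz in vivo with equal CD4 T cell markers (1.04), and Nfkbia in vivo over day 3 with IL-1β with that scaling (1.11) and with the length trend removed (1.18). For day 3 against 1 h the counts turned from higher to lower. With IL-1β 4 members were lower with the median ratio scaled to 1, equal upper quartiles or the length trend removed, and 8 with equal CD4 T cell markers. Without IL-1β 2, 2, 1 and 2 members were lower under the same settings. Scaling to a median ratio of 1 shifted the 1 h pair by -0.21 on the log2 scale. The cause of these changes was not tested. The inhibitors' share with IL-1β minus that without was 5.01 percentage points at day 3 with the length trend removed, against 9.48 as deposited. The limma fit called no member under any of its alternatives. Over all genes its IL-1β contrast called 34 genes without the 1 h stage, against 0 of the 6 libraries together, and its in vivo contrast called 408 without the 1 h stage, 48 and 160 with pseudocounts of 0.1 and 5, 8 with no filter and 4 with equal upper quartiles, against 202. Interval widths at 1 h limit what could be seen there.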
